A study of Mus musculus with 3 samples.

Results

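The proteasome is the barrel-shaped protease that degrades ubiquitin-tagged proteins and supplies most of the peptides displayed on MHC class I molecules. Its 20S core stacks rings of alpha subunits, which gate the entrance, on rings of beta subunits, of which beta1, beta2 and beta5 carry the active sites. The 19S particle caps the core, recognises tagged proteins, unfolds them with a ring of ATPases and removes the ubiquitin. Immune cells and interferon-treated cells build an immunoproteasome, in which beta1i, beta2i and beta5i take the place of the constitutive catalytic subunits. Cortical epithelial cells of the thymus are known for a further form, the thymoproteasome, in which beta5t (Psmb11) replaces beta5 and shapes the peptides on which CD8+ T cells are positively selected.

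The genes of this protease were described in RNA-seq counts from normal mouse thymus. The samples were 3 control thymi of C57BL/6 mice with both Cic alleles floxed (Cic flox/flox) that had received tamoxifen (TAM), called thymus 1, 2 and 3 after their replicate numbers. The labels give no Cre transgene, promoter, age or sex, and do not name the animal behind each library. The study set such controls against lymphomas without Cic, which are not analysed here, so that no contrast between conditions exists and the results are levels, ratios within a thymus and variation between the 3 thymi. The libraries held 44932368, 41345114 and 38265510 reads in thymus 1, 2 and 3, and 30414788, 28587087 and 25408442 of them counted for a gene on its transcribed strand. Levels are given as CPM, which relates a gene's count to the TMM-normalised library size, and 3 counts corresponded to 0.0986 to 0.122 CPM.

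All protein-coding genes whose symbol starts with Psma to Psmg followed by a digit were taken, which gave 50 genes of 52636 in the files. All 50 passed the filter on low counts, among 16548 genes tested. They comprised 7 alpha ring genes, 4 structural beta genes, 3 immune, 1 thymic and 3 constitutive catalytic genes, 6 ATPase genes, 3 further genes of the 19S base, 8 genes of the 19S lid, 5 activator genes, 4 chaperones of 20S assembly, 3 chaperones of 19S assembly and 3 single genes. Among the single genes, Psmf1 encodes PI31, a protein that binds the 20S core, and Psma8 an alpha subunit of male germ cells. The third, Psmc3ip, meets the naming rule but encodes HOP2, a cofactor of meiotic recombination and not a proteasome subunit. The names Psmd5, Psmd9 and Psmd10 likewise belong to chaperones that help the ATPase ring assemble and leave the finished particle.

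The 7 catalytic genes are close relatives, and how far they can be told apart by reads decides what their counts mean. The coding stretch that starts at the first codon of the processed chain, which encodes the catalytic threonine, is shown for each pair of immune and constitutive subunits and for the thymic subunit (GENCODE M21, GRCm38, coding strand), with that codon in capitals. Psmb9 (beta1i) lies at chr17:34185738-34185797 and Psmb6 (beta1) at chr11:70525885-70525944. Psmb10 (beta2i) lies at chr8:105937559-105937705 and Psmb7 (beta2) at chr2:38642243-38643384, both across an intron. Psmb8 (beta5i) lies at chr17:34199302-34199361, Psmb11 (beta5t) at chr14:54625474-54625533 and Psmb5 (beta5) at chr14:54616783-54617814, the last across an intron.
Psmb9: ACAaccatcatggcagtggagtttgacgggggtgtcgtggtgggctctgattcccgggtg
Psmb6: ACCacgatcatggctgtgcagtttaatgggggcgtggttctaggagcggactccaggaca
Psmb10: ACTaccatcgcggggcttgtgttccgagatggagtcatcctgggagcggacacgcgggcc
Psmb7: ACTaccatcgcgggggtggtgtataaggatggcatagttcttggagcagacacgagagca
Psmb8: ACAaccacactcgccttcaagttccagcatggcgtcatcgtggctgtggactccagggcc
Psmb11: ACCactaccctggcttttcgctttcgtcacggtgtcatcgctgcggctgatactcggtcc
Psmb5: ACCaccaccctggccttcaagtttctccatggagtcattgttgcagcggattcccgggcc
Over the aligned coding sequence Psmb9 and Psmb6 were identical at 66.2% of 657 bases, Psmb10 and Psmb7 at 63.3% of 812, Psmb8 and Psmb5 at 67.9% of 783, and Psmb11 and Psmb5 at 64.0% of 745. No pair shared a single stretch of 50 bases, and the longest run of identical bases in these 4 pairs was 18. The genes differ in how much of their sequence recurs in annotated transcripts of other genes.

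Psmb5 is the catalytic gene whose counts are most limited in this way. Of its 50-base stretches 54.07% also occur in another gene, chiefly the processed pseudogene Gm3375 on chromosome 7. Reads that lie wholly within shared sequence match several places and would not be counted. The read length is not given, and how many reads were lost in this way was not measured. The Gm3375 copy of the same 60 bases (chr7:3181270-3181329, plus strand) differs from Psmb5 at 0 of 60 positions.
Gm3375: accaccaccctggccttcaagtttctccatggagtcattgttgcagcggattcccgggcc
Gm3375 itself held 6, 9 and 11 counts in thymus 1, 2 and 3, against 841, 781 and 756 for Psmb5. Psma5 (alpha5) shares 49.96% of its stretches, mostly with the pseudogene Gm8394, and Psmd9 shares 24.95%, mostly with the overlapping non-coding gene Gm26745, which lies on the other strand and is separated by strand-specific counting. The activator gene Psme2 and its single-exon copy Psme2b form the closest pair, with 712 of 717 coding bases identical (99.3%). The 60 coding bases shown were chosen because no other window of that length holds more differences, so they overstate how far the pair differs. In them, Psme2 (chr14:55588049-55588246, minus strand, across an intron) and Psme2b (chr11:48945576-48945635, minus strand) differ at 3 positions, in capitals.
Psme2: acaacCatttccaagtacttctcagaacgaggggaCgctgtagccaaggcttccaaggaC
Psme2b: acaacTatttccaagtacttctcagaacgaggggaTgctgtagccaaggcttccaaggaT
Only 30.71% of the stretches of Psme2b and 71.73% of those of Psme2 are their own, so the counts of both miss the reads that match the pair equally. Of the 50 genes, 20 share no stretch with the annotated transcripts of any other gene. Unannotated sequence was not searched.

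Proteasome genes were among the more strongly expressed genes of the thymus. Divided by exon length, their median level was 41.4 CPM per kb (CPM per kilobase of all annotated exon bases of a gene), against 6.02 CPM per kb over the 14030 protein-coding genes tested. Of the 50 genes, 46 lay above that median, 41 above the 75th percentile and 31 above the 90th. At least 100 CPM in every thymus was reached by 28 of 50 proteasome genes (56%), against 2475 of the 14030 protein-coding genes (17.6%). The genes that make up the finished 20S and 19S particles were not equal in level, and the assembly chaperones lay below most of them.

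**Figure D1:**
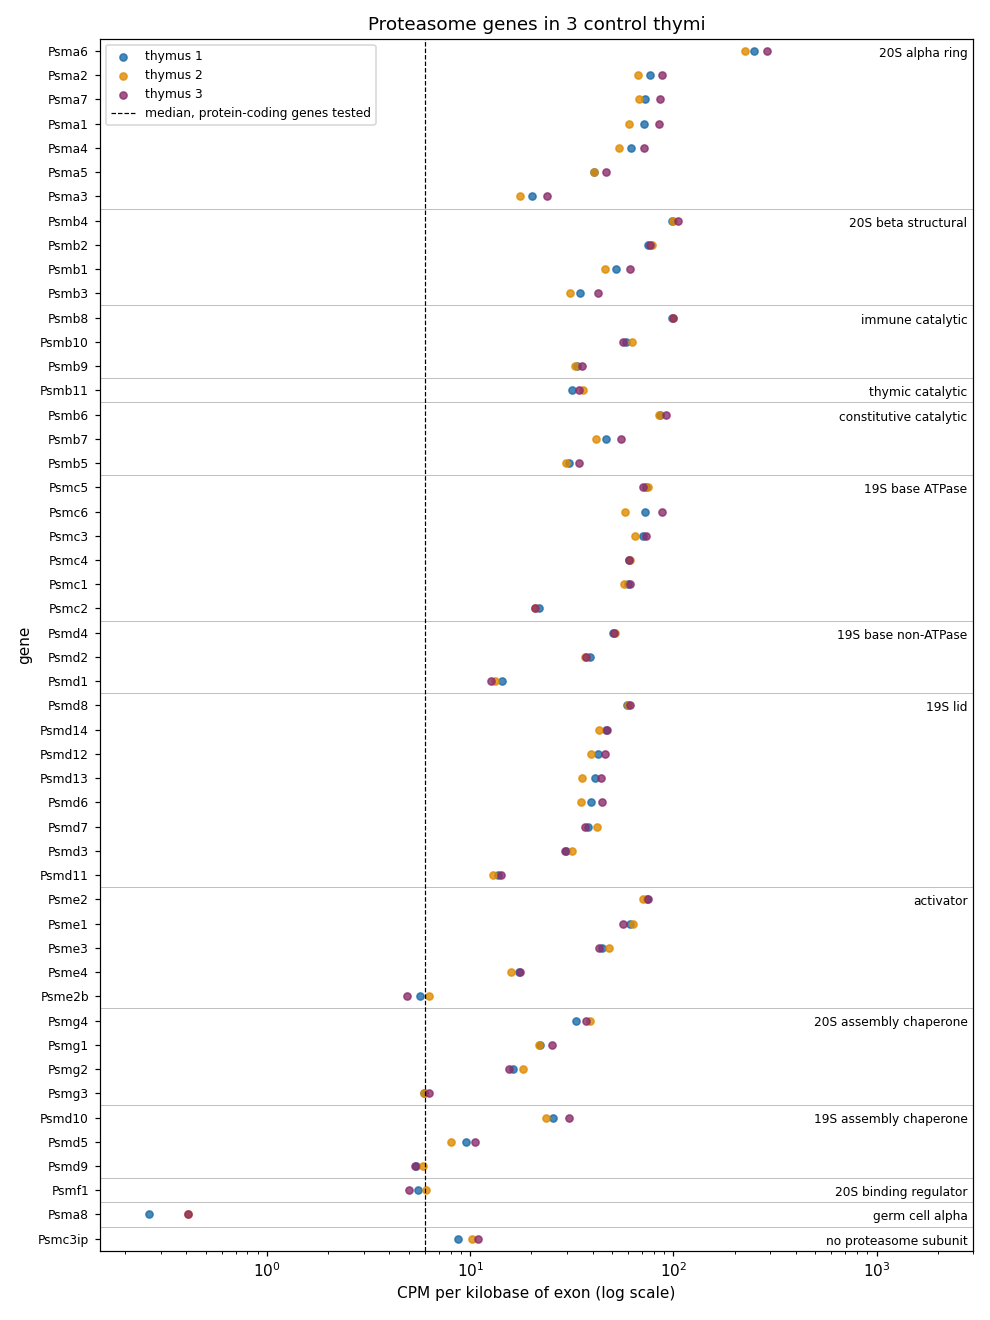
Level of each of the 50 genes in CPM per kilobase of exon on a log axis, by role, with 1 point per thymus and the median of the protein-coding genes tested (6.02) as a dashed line. Psma6 stands apart at 249, 226 and 289 in thymus 1, 2 and 3, while Psma8 lies below 1.

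The alpha ring genes had a median of 72.3 ± 12.05 CPM per kb (SD, n = 3 thymi), the highest mean of any role group of 3 or more, although in thymus 2 the immune catalytic and the structural beta genes lay above it. Psma6, which encodes alpha1, led all 50 genes per kb of exon, at 249, 226 and 289 CPM per kb in thymus 1, 2 and 3, and per kb of own stretches (50-base stretches found in no other gene). Psmb8 led by mean length of protein-coding transcripts, at 356 CPM per kb on average, against 344 for Psma6. That mean covers every annotated protein-coding transcript, short ones included, and can be below the length of the coding sequence. For Psmb5 it was 760.5 bases, against 792 coding bases. Psma3, which encodes alpha7, was the lowest of the ring per kb of exon at 20.2, 17.6 and 23.8 CPM per kb. The values of Psma6 and Psma3 do not overlap, and per kb of exon their means differed 12.4-fold. By coding transcript length the distance was smaller, at 344 against 59.7 CPM per kb, and Psma5 was the lowest of the ring at 45.3. Psma5 reached 40.6, 40.5 and 46.4 CPM per kb of exon, and 85.1 ± 6.73 CPM per kb of own stretches. Its rank in the ring thus depended on the length used and on how the shared sequence was treated. The remaining genes, Psma1, Psma2, Psma4 and Psma7, averaged between 62.5 and 77.1 CPM per kb of exon.

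The structural beta genes, which complete the beta rings without an active site, had a median of 65.0 ± 3.40 CPM per kb. Psmb4 (beta7) was the highest at 98.7, 99.8 and 106 CPM per kb. Psmb3 (beta3) was the lowest at 34.9, 30.9 and 42.3 CPM per kb, and its values do not overlap those of Psmb4. Psmb2 (beta4) and Psmb1 (beta6) lay between them at 76.7 ± 1.95 and 53.3 ± 7.65 CPM per kb.

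All 3 immune catalytic genes were expressed in the normal thymus, at a summed level of 0.951 to 1.55 times that of their constitutive partners, depending on the length used, and the thymic gene Psmb11 was expressed in every library. Psmb8, which encodes the chymotrypsin-like subunit beta5i, was the highest catalytic gene by every measure of length used here. Psmb8 had 333, 337 and 336 CPM in thymus 1, 2 and 3, or 99.3 ± 0.618 CPM per kb. Its values were nearly the same in the 3 thymi. Psmb9 (beta1i, chromosome 17, 34181987 to 34187764, minus strand) had 123, 119.7 and 130.1 CPM, or 33.9 ± 1.47 CPM per kb, and Psmb10 (beta2i, chromosome 8, 105935735 to 105938444, minus strand) had 100.1, 107 and 95.9 CPM, or 59.2 ± 3.25 CPM per kb. Psmb8 (chromosome 17, 34197721 to 34201454, plus strand) and Psmb9 are neighbours in the MHC region on either side of the peptide transporter gene Tap1, and Psmb9 overlaps Tap1 by 212 exonic bases on opposite strands. Strand-specific counting separates this pair.

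Of the constitutive genes, Psmb6, which encodes the caspase-like beta1, was the highest at 161, 159 and 172 CPM, or 87.7 ± 3.75 CPM per kb. Psmb7, which encodes the trypsin-like beta2, had 159, 142 and 189.6 CPM, or 47.8 ± 7.06 CPM per kb. Psmb5, which encodes the chymotrypsin-like beta5, had 27.6, 26.6 and 30.7 CPM, or 31.5 ± 2.34 CPM per kb. All 3 were highest in thymus 3 and lowest in thymus 2. Psmb5 is the catalytic gene whose level hangs most on its shared sequence, since per kb of own stretches it reached 68.7 ± 5.11 CPM.

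The thymic gene Psmb11 (chromosome 14, 54621433 to 54629556, plus strand) lies beside Psmb5 (chromosome 14, 54614119 to 54618022, minus strand). It had 152, 172 and 164 CPM in thymus 1, 2 and 3, or 34.0 ± 2.11 CPM per kb. Thymus 1 was the lowest and thymus 2 the highest, a spread that was wider than counting noise allows (edgeR goodness of fit at dispersion 0, Benjamini-Hochberg adjusted p = 5.34e-08). Other markers of cortical epithelium, the cell type known to make beta5t, were present. All 12 listed genes reached 10 CPM in every library, and their summed level was 3866, 4027 and 4194 CPM in thymus 1, 2 and 3. Gene by gene, 8 of the 12 were highest in thymus 2 (38% of all genes tested) and 7 lowest in thymus 3 (39.7%). Of the 12, the protease gene Prss16 had 887, 866 and 965 CPM. Foxn1, the master regulator of thymic epithelium, had 18.2, 22.8 and 15.8 CPM. Foxn1 and Psmb11 were both highest in thymus 2, whereas Prss16 was highest in thymus 3. In bulk tissue, fewer cells of a type and less RNA per cell cannot be told apart.

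Ranked per kb of exon, Psmb8 and Psmb6 led with values that do not overlap each other or those of the rest, followed by Psmb10 and Psmb7. Psmb11, Psmb9 and Psmb5 overlapped at the lower end. Ranked by mean length of protein-coding transcripts the order was Psmb8, Psmb6, Psmb9, Psmb7, Psmb10, Psmb11 and Psmb5, at 356, 206, 161, 141, 77.0, 67.6 and 37.2 CPM per kb of coding transcript. Psmb8 and then Psmb6 therefore led on both scales and also per kb of own stretches, while the order of the others changed with the length used.

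**Figure D2:**
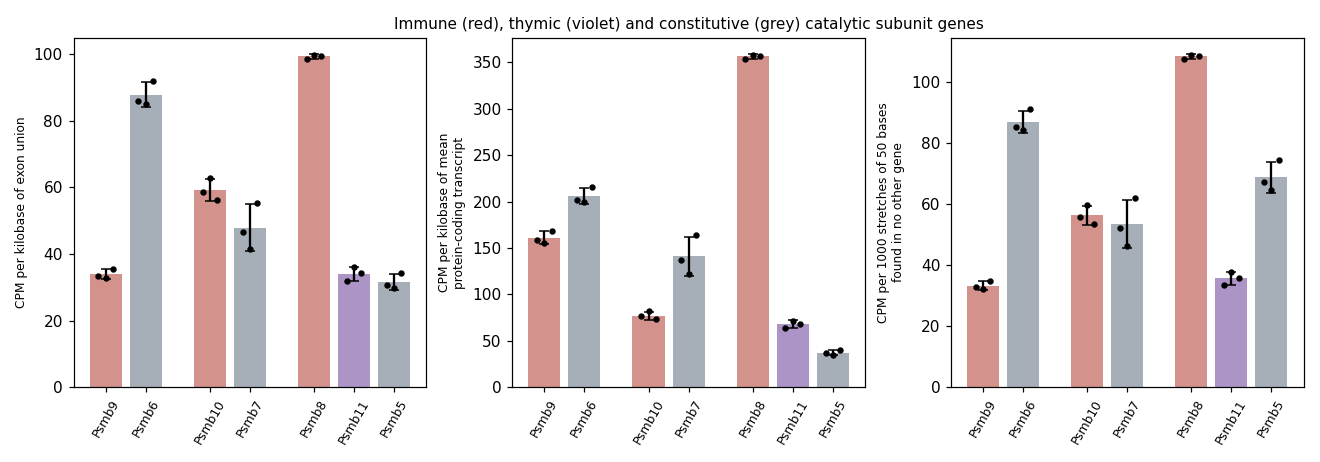
Levels of the 7 catalytic subunit genes on 3 scales of length, with bars for the mean of 3 thymi, whiskers for the SD and points for the thymi. Genes are grouped by active site, from beta1 at the left to beta5 at the right, with the immune gene in red, the thymic gene in violet and the constitutive gene in grey. Psmb8 is the highest bar in each panel, and Psmb5 is the lowest bar at the left, at 31.5 ± 2.34, but not at the right, at 68.7 ± 5.11.

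Ratios within a thymus, in which sequencing depth cancels, were above 1 at the beta5 position, where the immune gene exceeded the constitutive one, and below 1 at beta1. Psmb8 over Psmb5 was 3.21, 3.37 and 2.92 per kb of exon in thymus 1, 2 and 3, a mean of 3.16 ± 0.228 (SD, n = 3), and Psmb9 over Psmb6 was 0.389, 0.384 and 0.386, a mean of 0.387 ± 0.00245. Both directions held in all 3 thymi on every scale. The size of the first did not, since Psmb8 over Psmb5 was 1.58 ± 0.114 per own stretch and 9.60 ± 0.692 per coding transcript length. Psmb10 over Psmb7 was 1.26, 1.51 and 1.02 per kb of exon but 0.556, 0.667 and 0.448 by coding transcript length, so its direction depended on the length used. Its size also depended on the strand setting, with a mean of 2.20 ± 0.449 per kb of exon in the unstranded column, against 1.26 ± 0.248 in the stranded one. Psmb7 overlaps Nek6 by 405 exonic bases on the opposite strand. Psmb8 over Psmb5 was 2.24 ± 0.140 in the unstranded column. Of the 3 pairs, Psmb10 over Psmb7 had the widest spread between thymi relative to its mean, with thymus 2 the highest and thymus 3 the lowest.

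Summed over the 3 positions, immune over constitutive was 1.17, 1.25 and 1.05 per kb of exon, a mean of 1.16 ± 0.0982. Per own stretch it was 0.960, 1.03 and 0.866, a mean of 0.951 ± 0.0810, with thymus 2 above 1 and thymus 1 and 3 below it. The mean of this sum thus lay on either side of 1 by scale. Own stretches also leave out sequence shared with an overlapping gene on the opposite strand, whose reads strand-specific counting separates. This concerns 408 stretches of Psmb8 (Gm20496), 312 of Psmb7 (Nek6) and 163 of Psmb9 (Tap1). The thymic over the constitutive beta5 gene, Psmb11 over Psmb5, was 1.03, 1.21 and 1.004 per kb of exon and 0.496, 0.583 and 0.482 per own stretch, which again falls on both sides of 1. Psmb11 over Psmb8 was 0.342 ± 0.0192 per kb of exon and below 1 on all scales. As shares of the summed level of the 7 catalytic genes per kb of exon, the immune genes made up 48.9% ± 1.75, the thymic gene 8.65% ± 0.564 and the constitutive genes 42.4% ± 2.13. Per own stretch the immune genes made up 44.8% ± 1.79, the thymic gene 8.05% ± 0.557 and the constitutive genes 47.2% ± 2.19. By coding transcript length the shares were 56.8% ± 1.55 for the immune genes, 6.47% ± 0.456 for the thymic gene and 36.7% ± 1.87 for the constitutive genes. Which class held the larger mean share thus depended on the scale. With 3 thymi the exact two-sided sign-flip test of a log ratio cannot go below p = 0.25, so these ratios are given with their spread and no call is made. RNA ratios of a mixed tissue do not give the make-up of the proteasomes of any one cell type.

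In the 19S base, the ATPase genes had a higher median than the further base genes per kb of exon. By mean coding transcript length it was lower, at 86.3 ± 1.31 against 111 ± 1.14. On that scale the further base gene Psmd2 (Rpn1) was divided by 1353.67 bases, against 4038 bases of exon. The order of the 2 groups thus rests on the length used. The ATPase group, which unfolds substrates, had a median of 63.8 ± 3.58 CPM per kb, from 73.2, 75.1 and 71.0 for Psmc5 (Rpt6) down to 21.7, 20.7 and 20.7 for Psmc2 (Rpt1). The other 5 ATPase genes lay between 59.4 and 73.1 CPM per kb on average, so Psmc2 stood alone below them. By coding transcript length its distance shrank, with Psmc2 at 59.4 and the group median at 86.3. Psmc6 (Rpt4) had 253, 202 and 306 CPM and Psmc4 (Rpt3) 131, 133 and 130.4 CPM. They are the most and the least variable genes of the ring.

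The 3 other base genes encode the scaffold proteins Rpn1 and Rpn2 and the ubiquitin receptor Rpn10. They had a median of 37.6 ± 0.977 CPM per kb, with 50.6, 51.7 and 50.9 for Psmd4 (Rpn10) and 14.3, 13.2 and 12.7 for Psmd1 (Rpn2). The lid, which holds the deubiquitinase Rpn11 (Psmd14), had a median of 40.6 ± 3.53 CPM per kb. Its values ran from 59.2, 59.8 and 61.3 for Psmd8 (Rpn12) to 13.7, 13.0 and 14.2 for Psmd11 (Rpn6). Psmd14 averaged 45.5 ± 2.28 CPM per kb, near the group median. The annotated exons of 26 of the 50 genes, Psmd1 and Psmd11 among them, exceed the mean length of their coding transcripts by more than 2 times, which lowers their level per kb of exon.

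Among activators, which open the core in place of the 19S particle, both genes of the interferon-inducible PA28 ring were prominent. Psme2 (PA28beta) had 74.2, 71.0 and 75.2 CPM per kb in thymus 1, 2 and 3 and Psme1 (PA28alpha) 61.3, 62.9 and 56.3, a ratio of 1.22 ± 0.105 per kb of exon, 0.997 ± 0.0854 by coding transcript length and 1.85 ± 0.158 per own stretch. The nuclear PA28gamma gene Psme3 averaged 45.3 ± 2.80 and the PA200 gene Psme4 17.0 ± 0.886 CPM per kb. Psme2b, the copy described above, was the lowest per kb of exon at 5.65, 6.23 and 4.90 CPM per kb. Per kb of own stretches it reached 19.3 ± 2.32 CPM, against 17.0 ± 0.886 for Psme4. Its counts, 144, 153 and 101, come from reads that map to Psme2b alone.

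The assembly chaperones were expressed at lower levels than most subunits. Those of the 20S core had a median of 19.8 ± 0.552 CPM per kb, with 33.2, 38.9 and 37.2 for Psmg4 (PAC4) and 5.91, 5.94 and 6.27 for its partner Psmg3 (PAC3). By coding transcript length these partners were closer, at 39.3 ± 3.17 and 21.6 ± 0.716. Those of the 19S base had a median of 9.37 ± 1.24 CPM per kb, with 25.5, 23.5 and 30.6 for Psmd10 (gankyrin) and 5.41, 5.85 and 5.36 for Psmd9 (p27). By coding transcript length this order was reversed, with 27.6 ± 3.83 for Psmd10 and 32.8 ± 1.60 for Psmd9. The 34 subunits of the finished 20S and 19S particles had a median of 52.1 ± 3.48 CPM per kb of exon. All 7 chaperone genes lay below it on average.

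Of the single genes, Psmf1 had 35.8, 38.8 and 32.2 CPM in thymus 1, 2 and 3. The germ cell gene Psma8 was the lowest of the 50, with 20, 30 and 25 counts or 0.657, 1.02 and 1.01 CPM, against 222, 208 and 263 CPM for its somatic paralogue Psma7. Psmc3ip had 15.9, 18.6 and 19.9 CPM on its own strand. It also carried reads on the opposite strand, which made up 41.9% to 47.2% of its stranded reads over the 3 libraries. Its exons overlap those of Mlx on the other strand by 385 bases. No other proteasome gene exceeded 10% opposite-strand reads, and 45 of 50 stayed below 1% in every library. The 7 listed genes of meiotic germ cells, led per kb by Dmc1, Stra8 and Sycp3, summed to 8.05, 8.01 and 10.5 CPM in thymus 1, 2 and 3.

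Variation between the 3 thymi was modest in size, yet for most proteasome genes it exceeded counting noise. The coefficient of variation, the SD as a percent of the mean, had a median of 6.73% over the 50 genes, against 9.06% over all genes tested. Beyond counting noise varied 36 of 50 genes (72%), where 43.4% of all genes tested did so (edgeR goodness of fit at dispersion 0, Benjamini-Hochberg threshold 0.05). Well-expressed genes have less counting noise, so the test reaches smaller differences in them. Without thymus 2 the number was 23 (26.2% of all genes tested), without thymus 3 it was 24 (22.3%) and without thymus 1 it was 34 (39.7%).

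Against the variation of genes of similar abundance, no proteasome gene was called. The edgeR quasi-likelihood test, which compares each gene's dispersion with the trend, called 0 of 50, where it called 0.0604% of all genes tested. At an unadjusted p under 0.05 it had 3 of 50, namely Psmc6, Psma1 and Psmb3, and 731 of 16548. DESeq2's dispersion outliers (0.489% of all genes tested) included 0 of the 50, and so did edgeR's goodness of fit with the trended negative binomial dispersion (0.737% of all genes). Psmc6 alone was called by the quasi-likelihood test when no filter on low counts was applied, a setting in which it called 285 of 30857 genes. The median ratio of a gene's quasi-dispersion to the trend was 0.941 for the 50 genes and 0.797 for all genes. On counts simulated for 16548 genes this test found 2 of 67 genes given a 2-fold change and 43 of 67 given a 4-fold change. The changed genes were drawn from all genes tested, whatever their level. The reach of the test for proteasome genes alone was thus not measured.

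The genes with the widest spread were Psma8 (23.2%), Psmc6 (20.5%) and Psma1 (16.7%). The spread of Psma8, a gene of few counts, was not called beyond counting noise (Benjamini-Hochberg adjusted p = 0.334, edgeR goodness of fit). Psmc6 was highest in thymus 3 and lowest in thymus 2, and Psma1, at 212, 179 and 250.05 CPM, had the same order. The steadiest genes were Psmb8 (0.622%), Psmc4 (1.01%) and Psmd4 (1.12%). Psmb8 varied less than its counting error of 1.03%, as did Psmc4, Psmd4 and Psmg3.

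**Figure D3:**
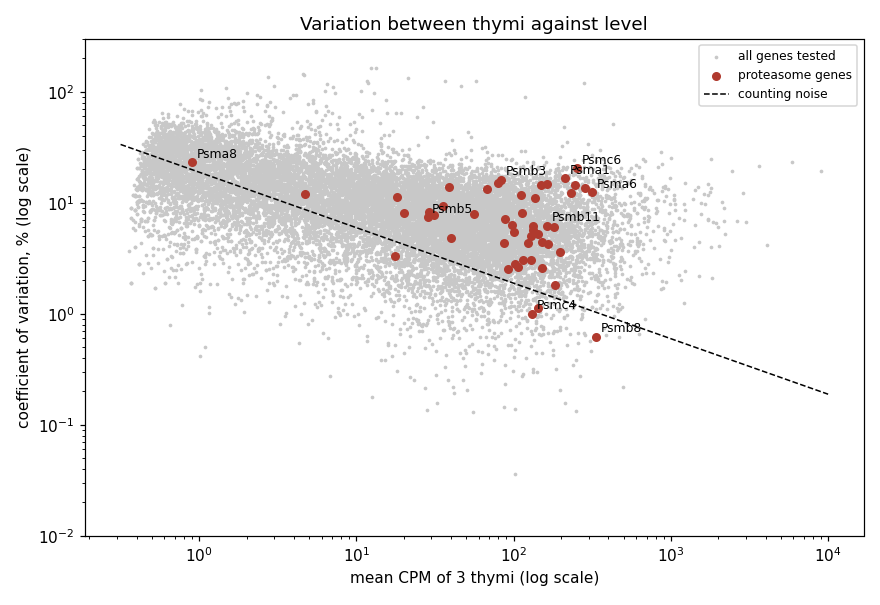
Coefficient of variation over 3 thymi against mean CPM, both on log axes, for all genes tested (grey) and the 50 proteasome genes (red), with the counting noise of a library of the mean size as a dashed line. Most red points lie above the line and inside the grey cloud, and Psmb8 lies below the line at 0.622%.

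All alpha ring and constitutive catalytic genes were highest in thymus 3 and lowest in thymus 2, and in several other role groups the median ratio of thymus 3 over thymus 2 was also above 1. Of the 50 genes, 30 were highest in thymus 3, 17 in thymus 2 and 3 in thymus 1, where 37.9%, 38% and 24.1% of all genes tested were. Lowest in thymus 2 were 28 of 50, against 36% of all genes. In the alpha ring all 7 genes peaked in thymus 3 and had their minimum in thymus 2, and the median ratio of thymus 3 over thymus 2 was 1.32. The 3 constitutive catalytic genes had the same order, with a median ratio of 1.15. Thymus 1 and 2 were near equal for Psma5 (53.6 and 53.5 CPM) and Psmb6 (161 and 159 CPM), so which of them was lowest is uncertain there. The median ratio was 1.30 in the 19S assembly chaperones, with 2 of 3 higher in thymus 3 than in thymus 2, 1.19 in the structural beta genes, with 3 of 4, and 1.09 in the lid, with 6 of 8. In the immune catalytic genes the median ratio was 0.998, with 1 of 3 higher in thymus 3. It was also below 1 in the further base genes, at 0.984 (1 of 3), and in the activators, at 0.895 (2 of 5). The ATPase genes had 1.03 (4 of 6) and the 20S assembly chaperones 1.005 (2 of 4). Psmb11 had 0.952, Psmf1 0.828, Psma8 0.992 and Psmc3ip 1.07. Over all genes tested the median ratio was 0.992. These differences between role groups were not tested.

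The median deviation of log2 CPM from the gene mean over the 50 genes was -0.01, -0.05 and 0.06 in thymus 1, 2 and 3. Over all genes tested it was 0.0007, 0.0048 and -0.0051. Scaled by library totals in place of TMM, the median was -0.01, -0.01 and 0.01 over the 50 genes. Over all genes tested it was then 0.0032, 0.044 and -0.046, so all genes moved with this scaling as well. Of the 50 genes, 21 were then highest in thymus 3, where 28.1% of all genes tested were. With that scaling all 7 alpha ring genes were still highest in thymus 3 and 6 of 7 lowest in thymus 2. The 3 constitutive catalytic genes were highest in thymus 3, and 2 of 3 lowest in thymus 2. Other measures moved between the same libraries. Levels followed GC content differently, with a Spearman correlation across genes between log2 deviation and GC content of -0.165, 0.416 and -0.29 in thymus 1, 2 and 3. With that trend removed, 34 of 50 genes were highest in thymus 3, where 39.2% of all genes were, and 31 lowest in thymus 2, where 35.7% were. The alpha ring then had a median log2 difference of 0.29 (thymus 3 minus thymus 2), against 0.40 before, with 7 of 7 genes higher in thymus 3. The immune catalytic genes then had 0.09, with 2 of 3 higher in thymus 3.

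Of the listed heat shock genes, 10 of 10 were highest in thymus 3 (37.9% of all genes tested) and 9 lowest in thymus 2 (36%). Led per kb by Hsp90ab1, Hspa8 and Hsp90aa1, they summed to 3286, 2536 and 3969.8 CPM in thymus 1, 2 and 3. The listed proliferation genes were highest in thymus 3 in 9 of 10 cases (37.9% of all genes tested). Led by Pcna, Mki67 and Rrm2, they summed to 2860.2, 2714 and 3378 CPM. The part of either in the proteasome result was not tested. Erythroid transcripts also differed. The 5 listed genes, led by Hbb-bs, Hba-a1 and Hbb-bt, summed to 1024, 47.1 and 224 CPM in thymus 1, 2 and 3. All 5 were called by the quasi-likelihood test, which called 0.0604% of all genes tested.

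**Figure D4:**
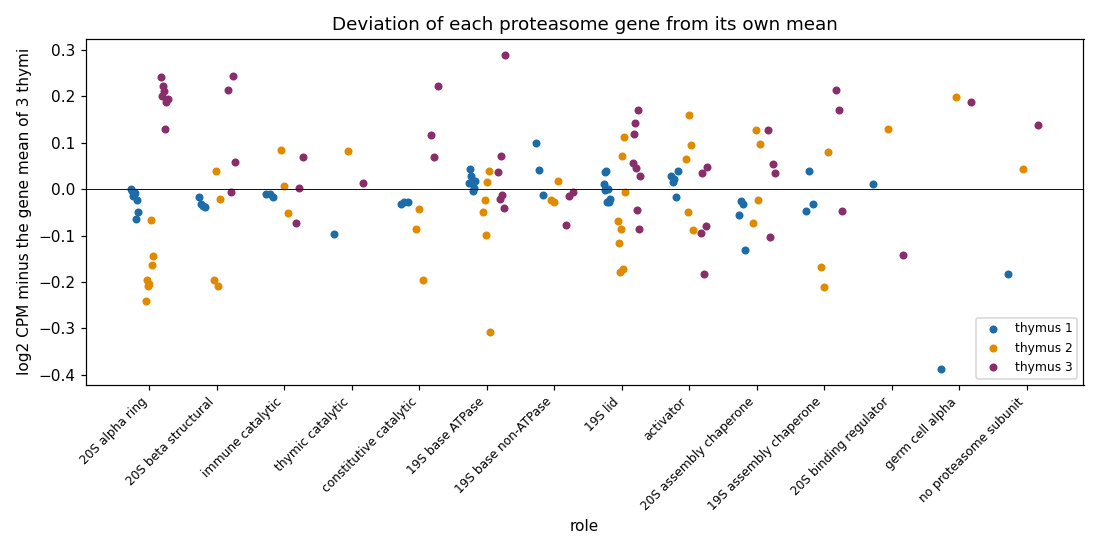
Deviation of log2 CPM of each proteasome gene from its own mean over 3 thymi, by role, with 1 point per gene and thymus. In the alpha ring the points of thymus 3 lie above 0 and those of thymus 2 below 0 for all 7 genes, whereas the immune catalytic points of both thymi lie on both sides of 0.

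Genes that work with the proteasome were expressed throughout. Of 28 listed partners in ubiquitin supply, substrate delivery and proteasome assembly, 27 reached 10 CPM in every library. Beyond counting noise varied 16 of the 28, where 43.4% of all genes tested did so. The quasi-likelihood test, which called 0.0604% of all genes tested, called 0 of them. Its unadjusted p was under 0.05 for 2, Sem1 and Rps27a. DESeq2 (0.489% of all genes tested) and the negative binomial fit (0.737%) also called 0. The ubiquitin genes Rps27a and Ubb led at 238 ± 44.3 and 163 ± 5.503 CPM per kb, followed by Sem1, a small lid subunit outside the naming rule, at 58.2 ± 12.2. Sem1 had 189, 174 and 255 CPM in thymus 1, 2 and 3, the same order as the alpha ring. Pomp, the maturation factor of the 20S core, had 142, 129 and 169 CPM, again highest in thymus 3 and lowest in thymus 2. Adrm1, the ubiquitin receptor Rpn13, had 36.1, 34.8 and 33.6 CPM. Nfe2l1, the transcription factor that raises proteasome genes when the proteasome is inhibited, had 131, 135 and 119 CPM. Unlike Pomp and Sem1, it was lowest in thymus 3.

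The class I presentation genes and interferon regulators that are known to accompany the immunoproteasome were all present. All 20 listed genes reached 10 CPM in every library, and 16 varied beyond counting noise (43.4% of all genes tested). The quasi-likelihood test, which called 0.0604% of all genes tested, called 0 of the 20. Its unadjusted p was under 0.05 for 0 of them. DESeq2 (0.489% of all genes tested) and the negative binomial fit (0.737%) also called 0. The class I light chain B2m and the heavy chains H2-K1 and H2-D1 led at 1346 ± 64.3, 261 ± 14.5 and 236 ± 10.5 CPM per kb. The peptide transporter gene Tap1, neighbour of Psmb9, had 163, 166 and 156 CPM, the interferon-induced factor Irf1 123, 122 and 119 CPM and the class I transactivator Nlrc5 103, 96.9 and 89.1 CPM. All 3 were lowest in thymus 3. Of the list, 13 of 20 were lowest in thymus 3, where 39.7% of all genes tested were.

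The cells that could contribute these transcripts were checked with marker lists. Double-positive thymocyte genes summed to 14113, 13785 and 14394 CPM in thymus 1, 2 and 3, led per kb by Cd8b1, Dntt and Rag1. The defining genes of the labelled tissue were thus present. Macrophage and dendritic cell genes, led by Lyz2, Cst3 and C1qb, summed to 1695, 1477 and 1368 CPM. All 13 were lowest in thymus 3 (39.7% of all genes tested). B cell genes, led by Ighm, Jchain and Cd79b, summed to 1689, 1551 and 1722 CPM, of which Jchain alone had 370.3, 243 and 453 CPM. Of the 7, 5 were highest in thymus 1 (24.1% of all genes tested) and 6 lowest in thymus 3 (39.7%). Medullary epithelial genes, led by Krt5, Krt14 and Epcam, summed to 263, 292 and 223 CPM, with Ccl21a at 0 in every library. Of the 50-base stretches of Ccl21a 71.62% also occur in another gene, chiefly Gm21541, and reads that lie wholly within shared sequence would not be counted. Cortical epithelial genes were led by Prss16, Krt18 and Ctsl. Of these 12, 8 were highest in thymus 2 (38% of all genes tested) and 7 lowest in thymus 3 (39.7%). Their part in the levels of the immune and thymic catalytic genes was not tested.

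Promoter sequence from 250 bases before to 50 after the gene start was found for 42 of the 50 genes in RefSeq (GRCm38.p6). Both strands were searched for 4 short motifs, and the share of all 27025 genes with such a window is given beside each. The CCAAT box (CCAAT) was present in 15 of 42 (35.7%, against 41.1%) and TGACNNNGC, the core of the element bound by the protein of Nfe2l1, in 6 of 42 (14.3%, against 14.0%). These letters stand at -47 to -39 in Psmb5 and at -9 to -1 in Psmb6. The interferon-stimulated response element was found in 5 of 42 (11.9%, against 4.0%), namely Psmb3, Psmd4, Psmd9, Psme1 and Psmg4, and the gamma-activated site (TTCNNNGAA) in 3 of 42 (7.1%, against 9.6%), among them Psmb8 at -97 to -89. A match is a description of letters in this window and shows no binding.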

How the data were processed

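RNA of 3 normal thymi was sequenced after isolation with a DNA and RNA column kit and stranded mRNA library preparation, per the labels. What the authors deposited are unnormalised counts of reads per gene from STAR 2.5.3a on GRCm38, as the submitters' processing notes name them, in columns for either strand, the gene's strand and the reverse strand. No annotation release or read length is given in the sources used here. The layout is that of STAR's gene counting, which keeps uniquely mapped reads. The reverse-strand column was used, and 32.3%, 30.9% and 33.6% of reads in thymus 1, 2 and 3 fell in classes that name no gene and entered no library size. Of 52636 identifiers, 52489 matched GENCODE M21.

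The analysis used R 4.3.3, edgeR 4.0.16 (minimum count 10, total 15), limma 3.58.1 and DESeq2 1.42.0. With 1 condition, an intercept was fitted over all 16548 genes. Each gene's robust quasi-dispersion was divided by the trended prior and referred to F, one-sided, and p-values were adjusted by Benjamini-Hochberg (threshold 0.05). Counting noise was tested by edgeR's goodness of fit at dispersion 0. Log2 CPM used a prior count of 2, and the GC trend was removed by lowess with span 0.3. Sharing was measured in stretches of 50 bases over the GENCODE M21 transcripts. The self-test on simulated counts made 10 false calls among 121.

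The members and lists were chosen with earlier results of these data known. Genes named with values were the 7 catalytic genes, the highest and lowest per kb of each role group of 3 or more, all of smaller groups, members with the 3 highest and 3 lowest coefficients of variation, those called, those with under 80% own stretches or over 10% opposite-strand reads, the 3 highest per kb of every other list, and Tap1, Irf1, Nlrc5, Nfe2l1, Pomp, Adrm1, Prss16 and Foxn1. Other genes were named to complete a role. Of 31 listed partner symbols, 28 were found. The p-values cover no more than the spread between these 3 samples, possibly technical, since the labels name no animal per library. The 3-count limit covers counting error only.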

Additional observations from a re-analysis of the deposited data

Results flagged for a closer look

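Reads on the strand opposite to Psmc3ip made up at least 41.9% of its stranded reads in every library, above the limit of 3 counts, in a column that the comparisons do not use. The opposite-strand counts were 433, 393 and 388 in thymus 1, 2 and 3, beside 484, 546 and 490 on its own strand. Mlx, on the other strand, overlaps its exons by 385 bases, and the part of Mlx in these reads was not tested. Groups of 3 are too small to test for a library that stands apart.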

How the results depend on the processing

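No paired analysis was possible because there is 1 group only. The ratios and levels between genes depended on the length they were divided by and, at beta2 and beta5, on the strand setting. Immune over constitutive was 1.16 per kb of exon, 1.55 by coding transcript length, 1.58 without division by length and 0.951 per own stretch. On the last scale the mean was below 1, but thymus 2 was above it. The ratio of thymic to constitutive beta5 was 1.08, and under the same alternatives 1.82, 5.78 and 0.520. The ratio of beta2i to beta2 was 1.26, but 0.557 by coding transcript length, 0.629 undivided and 2.20 in the unstranded column. The median of the 34 subunits was 52.1 CPM per kb of exon, 112 by coding transcript length, 58.2 per own stretch and 132 undivided. Leaving out 1 thymus in turn gave 1.11 to 1.21 for immune over constitutive, 1.02 to 1.12 for thymic over constitutive beta5, 50.2 to 53.7 for the subunit median, 23 to 34 genes beyond counting noise (36 with all) and 0 genes above the dispersion trend. The number of genes above the trend was 1 with no filter on low counts, and 0 with the other scalings, filters, tools and the unstranded column. Of the alternatives for the values that answer a comparison, 55 left a value within its spread or a count near the main one. A further 9 moved it, and 2 turned a mean ratio to the other side of 1. The cause was not tested where a value moved. Depth limits Psma8, with 20 to 30 counts, and shared sequence limits Psmb5, Psma5, Psme2 and Psme2b.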

Other observations

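Pseudogene copies of proteasome genes collected few reads. The copy of Psma3 on chromosome 6, Gm13835, held 58, 39 and 40 counts in thymus 1, 2 and 3, against 2388, 2014 and 2281 for Psma3. Gm6542, which shares sequence with Psma4, held 43, 24 and 28, against 4452, 3744 and 4202 for Psma4. The beta1 pseudogene Psmb6-ps2 held 12, 14 and 10 counts, and Psmb5-ps held 0 in every library. Reads that match a gene and its copy equally are not in these counts.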
